A study of Rattus norvegicus with 24 samples.

Results

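The transcript clusters described here carry the class Pseudogene in the annotation of the array and had a mean log2 signal over the 6 control arrays above the mean of the bioB spike-in control on the same arrays, which was 9.27. There were 468 such clusters among 2026 pseudogene clusters, 9755 expressed clusters of all classes and 68842 clusters in all. Total RNA of the dorsal striatum of male Sprague Dawley rats was measured on the Affymetrix Rat Transcriptome Array, with 1 rat per array. The rats had been trained in chambers for intravenous self-administration and were killed about a month after the sessions ended. The paper describes tests of cue-induced drug seeking in those chambers early and late in this month. Animals were killed the day after the last test. Shock-resistant (SR, n = 6) and shock-sensitive (SS, n = 6) rats took methamphetamine (METH) and received footshocks with part of their infusions, and were told apart afterwards by whether they went on taking the drug. Yoked rats were given saline and a non-contingent shock whenever the SR (YSR, n = 3) or SS (YSS, n = 3) rat they were paired with was shocked. By the paper, YSR rats received significantly more shocks than YSS rats. Control rats (CT, n = 6) took saline and received no shocks. The sources do not tell which yoked rat belonged to which METH rat.

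Pseudogenes are copies of genes that have lost the reading frame, the promoter or both. Many are processed copies, made when an mRNA is copied back into DNA by the enzymes of LINE-1 elements and inserted elsewhere in the genome, so the most numerous ones derive from abundant housekeeping mRNAs such as those of ribosomal proteins and glycolytic enzymes. Since a pseudogene keeps much of the sequence of its parent, short array probes placed on it may also bind RNA of the parent gene or of other copies, and a signal on such a cluster is not by itself a transcript of that locus.

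All 11 measured markers of striatal medium spiny neurons, the projection neurons of this region, lay above bioB in CT arrays. Their mean ranged from 13.0 to 15.0 over the 24 arrays. Whether they tell the dorsal striatum from the nucleus accumbens was not examined. Markers of other tissue varied between arrays. Kl, which marks the choroid plexus, lay above bioB of the same array on 9 arrays, of which 2 were SR, 3 SS, 2 YSR, 1 YSS and 1 CT. The mean of 15 choroid plexus markers, 2 of which lay above bioB in CT arrays, ranged from 5.75 to 9.45 in SR, from 6.26 to 10.03 in SS, from 6.45 to 10.8 in YSR, from 5.87 to 8.17 in YSS and from 6.15 to 10.5 in CT arrays. The mean of 11 cortex markers, 2 of which lay above bioB, ranged from 7.15 to 8.86 in SR, from 7.05 to 9.24 in SS, from 7.50 to 9.40 in YSR, from 8.72 to 9.10 in YSS and from 6.46 to 8.86 in CT arrays. Any 2 arrays correlated at between 0.988 and 0.996 over all rows. In bulk tissue, fewer cells of a type and less RNA per cell cannot be told apart.

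The selected clusters covered a wide range of signal. Their CT means ran from 9.28 to 19.5 on the log2 scale with a median of 12.3. Between 12 and 14 there were 79 clusters, between 14 and 16 47, and between 16 and 18 81. In all, 128 of the 468 (27.4%) lay above 16, whereas 3.64% of expressed coding clusters, 22.5% of noncoding clusters and 55.0% of unassigned clusters did so. Signals of different clusters come from different probes and are not amounts of RNA that can be ranked. Of all pseudogene clusters on the array, 23.1% passed the bioB level, against 20.1% of coding, 4.11% of noncoding and 25.9% of unassigned clusters. At the limit itself, the 5 lowest selected clusters had CT means between 9.28 and 9.33, while the 5 pseudogene clusters just outside it, which include copies of Rpl13 and Rpl7a, lay between 9.23 and 9.27.

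**Figure D1:**
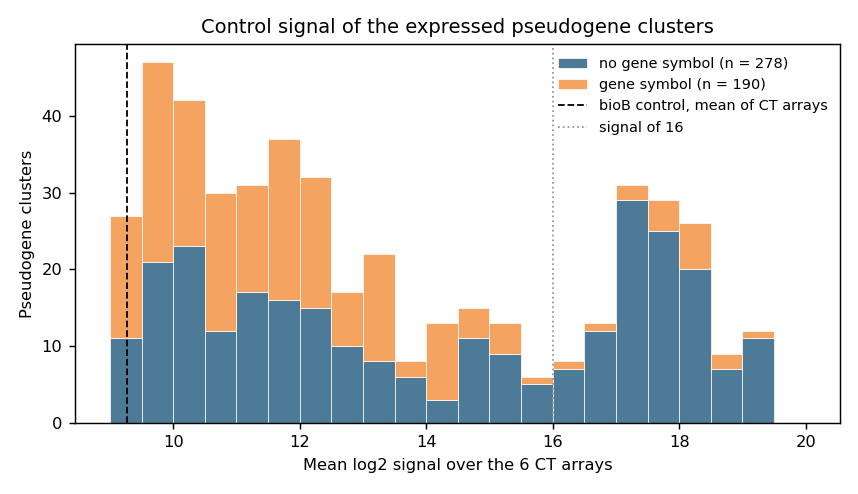
Number of expressed pseudogene clusters by mean log2 signal over the 6 CT arrays (bins of 0.5), stacked by whether the annotation gives a gene symbol. The dashed line is the bioB control at 9.27 and the dotted line a signal of 16, above which 111 of the 278 clusters without a symbol and 17 of the 190 with one lie.

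Most of the clusters also passed the bioB level in the groups that the selection did not use. Set against bioB on the arrays of the group, 460 of the 468 passed in SR, 439 in SS, 468 in YSR and 458 in YSS rats. Among all pseudogene clusters of the array, 463 passed in SR, 439 in SS, 495 in YSR, 463 in YSS and 468 in CT rats, and 438 passed in every group. These counts moved with the control itself, whose mean was 9.30 ± 0.21 in SR, 9.52 ± 0.13 in SS, 9.09 ± 0.06 in YSR, 9.29 ± 0.10 in YSS and 9.27 ± 0.13 in CT arrays (SD, n = 6, 6, 3, 3 and 6). Against the CT value of bioB, the counts were 466 in SR, 470 in SS, 481 in YSR, 463 in YSS and 468 in CT rats. Array by array, 402 of the 468 clusters (85.9%) exceeded bioB of the same array on all 24 arrays. Selection by the mean of all 24 arrays instead of the CT arrays gave 464 clusters, all of them among the 468.

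The annotation divides the clusters into those with and without a name. A total of 278 clusters have no symbol, with a median CT signal of 14.0, and 190 have a symbol, with a median of 11.6. They lie on 21 chromosomes, led by chromosome 1 with 53 and chromosome 2 with 46, and are split between the strands with 226 on plus and 242 on minus. Their median span is 1008 bases, and 393 of them are measured by 30 probes. By the coordinates of the array table, whose genome build is not named, 293 clusters touch no coding or complex cluster, 75 lie at least in part within the span of one on the same strand and 109 within one on the opposite strand. Through symbols on the same chromosome, 52 clusters matched a gene of RefSeq (assembly GRCr8), of which 50 are pseudogenes and 2 protein coding there.

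Most of the brightest clusters had no symbol. The highest CT mean belonged to TC0200003063 (chromosome 2, 59619213 to 59619592, minus strand), an Ensembl pseudogene without a symbol, at 19.5 (cluster numbers are written without the suffix that all share). Its signal had a lowest value of 19.15, a median of 19.43 and a highest value of 19.47 in SR rats, and of 19.41, 19.46 and 19.51 in SS rats. The YSR arrays read 19.47, 19.52 and 19.59 and the YSS arrays 19.32, 19.54 and 19.47, against a lowest of 19.33, a median of 19.46 and a highest of 19.64 in CT rats. All groups thus overlapped. The next were TC0700000866, TC1800000054, TC0X00000792, TC1700001097, TC0700001091, TC2000000480, TC2000001417, TC0800000272 and TC0600000422, with CT means from 19.25 for TC0700000866 down to 19.05 for TC0600000422. Of these, TC1700001097 carries the symbol Serinc1, a gene for a membrane protein that helps to insert serine into lipids.

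Of the 128 clusters with a CT mean above 16, 49 have a span whose length, to the base, is shared by at least 5 selected clusters. Spans of 3281, 1004, 5522, 1073, 3283, 377 and 1634 bases were each shared by at least 5 selected clusters, 57 in all. The span of 3281 bases was the most frequent. All 14 pseudogene clusters of that length on the array were selected, they lie on 10 chromosomes, and their CT means ran from 15.2 to 18.8. Of the 12 pseudogene clusters with a span of 1004 bases 11 were selected (CT means from 9.77 to 19.3), and of the clusters with a span of 5522 bases 9 of 9. Another 2 selected clusters are named after DUF1725, a domain found in the ORF2 protein of LINE-1 elements.

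Some clusters could not be separated at all. In 12 sets with 27 clusters together, all members of a set had identical values on every array, so the 468 clusters hold 453 distinct profiles. The largest such set has 5 clusters of 1073 bases on chromosomes 2, 5, 9, 15 and X, all with a CT mean of 17.4. Identical values were found for 5.77% of the selected clusters and for 7.13% of all expressed clusters. The cross-hybridization field of the array table is 0 for every row and does not set these clusters apart.

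Among the clusters whose names point to a parent gene, copies of translation and glycolysis genes were the most frequent. Cytosolic ribosomal proteins, the protein part of the ribosome, accounted for 46 clusters with CT means from 9.35 to 16.6. Glycolytic enzymes accounted for 18, chaperones for 12, translation factors for 9, the ubiquitin and proteasome system for 7, the cytoskeleton for 5, high mobility group and other chromatin proteins for 4, nuclear ribonucleoproteins for 3, oxidative phosphorylation for 2 and vomeronasal receptors, which detect pheromones, for 1, while no ferritin copy was selected. The remaining 83 named clusters belong to none of these families.

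The 2 brightest clusters of each family show how wide the range is. The ribosomal copies were led by TC0500003626 (CT mean 16.6), which spans only 87 bases, and by TC1800000634 (15.5), a copy named after a ribosomal protein domain. The glycolysis copies were led by TC0700003590 and TC0500002771 (18.7 and 18.4), both copies of Gapdh. The chaperone copies were led by TC0600002121 (Hspa8-ps25 in RefSeq, 18.0) and TC1800000170 (Hsc70-ps2, 17.3), and the translation factor copies by TC0900000416 (Eif4g2, 14.4) and TC0400000590 (Eif1-ps3, 13.2). Nuclear ribonucleoprotein copies were led by TC1700000704 (Hnrnpa1-ps11, 12.5) and TC1400000533 (Hnrnpa1-ps12, 11.1), and chromatin copies by TC0100005812 (12.4) and TC1000001936 (11.6), both related to Hmgb1, a DNA-bending protein. Cytoskeletal copies were led by TC0100000786 (tubulin alpha 1, 11.9) and TC0100006718 (thymosin beta, 11.8), and ubiquitin copies by TC0200000674 (11.96) and TC0200002725 (a copy of the Ube2v1 type, 11.8).

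A parent could be read from the name for 113 clusters and 68 genes. For 109 of the clusters the array also holds the coding cluster of the parent, and for 101 of them that coding cluster lay above bioB. Gapdh, the glycolytic enzyme that oxidizes glyceraldehyde-3-phosphate, had 13 copies with CT means from 9.77 to 18.7, beside a CT mean of 18.3 for Gapdh itself. The brightest Gapdh copy, TC0700003590, was also the steadiest of all 468 clusters, with an SD within groups of 0.06. Its signal had a lowest value of 18.70, a median of 18.71 and a highest value of 18.77 in SR rats, 18.58, 18.69 and 18.73 in SS rats, 18.71, 18.69 and 18.69 on the YSR arrays, 18.72, 18.55 and 18.71 on the YSS arrays, and 18.59, 18.70 and 18.86 in CT rats. Hspa8, the constitutive heat shock cognate chaperone, had 9 copies with CT means from 10.4 to 18.0 beside 19.4 for the parent. Rpl13a, Rpl31 and Rpl7a had 4 copies each.

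The spread among rats of a group was close to that of coding clusters. The median SD within groups was 0.20 for the selected pseudogene clusters, 0.19 for expressed coding, 0.31 for noncoding and 0.22 for unassigned clusters. The 5 most variable were TC1900001228 (0.589), TC1400002178 (0.545), TC0600002306 (Tomm70-ps1, a copy of a mitochondrial import receptor, 0.531), TC0300004038 (0.465) and TC0500001750 (0.451). For TC0600002306, all groups overlapped across a broad range, from 12.6 to 14.0 in SR and from 12.9 to 14.1 in SS, with 12.6, 12.9 and 13.8 in YSR and 13.6, 13.0 and 12.7 in YSS arrays, against 12.6 to 13.7 in CT rats. The brighter 128 clusters were high together on some arrays and low together on others, in every group. Their median deviation from their own CT means ran from −0.41 to 0.06 in SR, from −0.08 to 0.27 in SS, from −0.30 to 0.12 in YSR, from −0.29 to 0.40 in YSS and from −0.28 to 0.25 in CT arrays. On the array with the lowest median, SR replicate 5, 8 of the 128 lay above their CT mean, and on the one with the highest, YSS replicate 2, 119 did. The median of all other expressed clusters, which were of any signal level, stayed between −0.10 and 0.10 on every array. Among all expressed clusters 21.8% lay above 16. Bright clusters of other classes were not followed separately, so the shift cannot be called particular to pseudogene clusters. Among the repeated spans, all 14 clusters of 3281 bases were below their CT means on SR replicate 5 and above them on YSS replicate 2, with median deviations of −0.35 and 0.45.

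**Figure D2:**
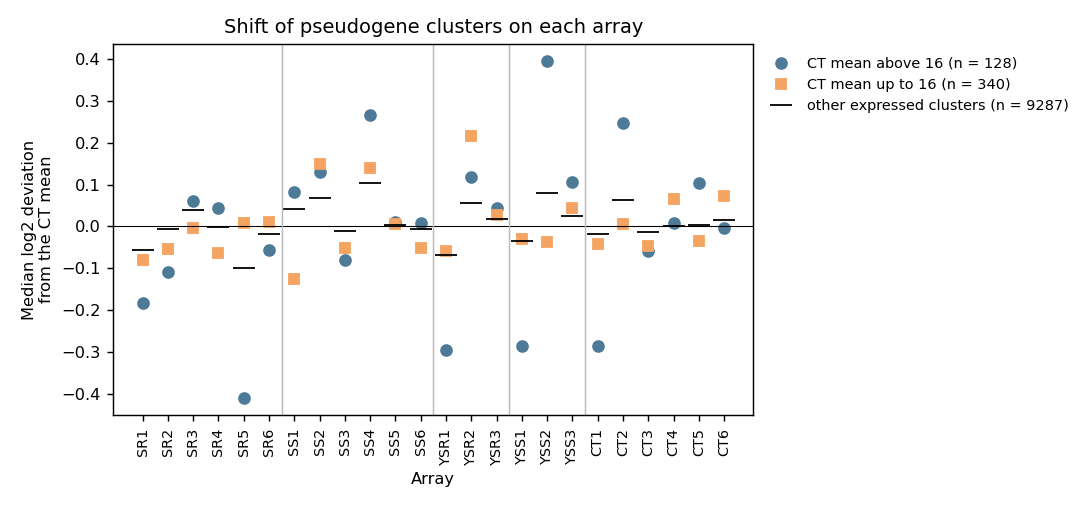
Median log2 deviation of pseudogene clusters from their own CT means on each array, for the 128 clusters with a CT mean above 16 (circles), the 340 with a CT mean up to 16 (squares) and the 9287 other expressed clusters of any signal level (dashes). Vertical lines separate the groups, and within each group the bright clusters spread over both sides of 0, from −0.41 on SR replicate 5 to 0.40 on YSS replicate 2.

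The groups were then compared cluster by cluster. A cluster was counted at an unadjusted p under 0.05 and a fold of at least 1.7, here called the criterion. The p-values come from limma over all 9755 expressed clusters, fitted to all 5 groups, and are given also after Benjamini-Hochberg adjustment. Since the clusters were chosen by their CT level, the comparisons with CT use arrays that the selection used. In no comparison did a pseudogene cluster, or any other expressed cluster, reach an adjusted p under 0.05, and the smallest adjusted p of any pseudogene cluster was 0.573, in SRvsYSR (limma). Without moderation, the ordinary test of the groups compared gave none either. That test gave, at an unadjusted p under 0.05, 8 clusters in SRvsCT (1.71%, beside 2.43% of all expressed clusters), 5 in SSvsCT (1.07%, beside 1.86%), 40 in SRvsSS (8.55%, beside 6.99%) and 7 in YSRvsCT (1.5%, beside 1.34%). It gave 10 in YSSvsCT (2.14%, beside 4.28%), 5 in YSRvsYSS (1.07%, beside 1.78%), 24 in SRvsYSR (5.13%, beside 6.1%) and 10 in SSvsYSS (2.14%, beside 2.71%). The median differences of the pseudogene clusters lay between −0.08 and 0.05 in all 8 comparisons.

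**Figure D3:**
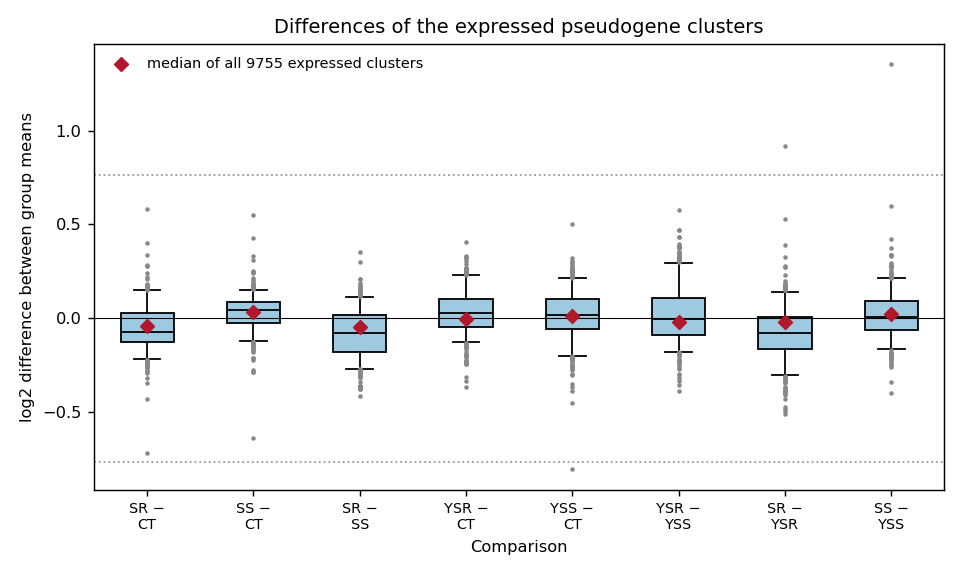
Log2 differences of the 468 expressed pseudogene clusters in the 8 comparisons (box: quartiles with the median; whiskers: 5th to 95th percentile; points: clusters beyond them), with the median of all 9755 expressed clusters as a diamond. Dotted lines mark a fold of 1.7, which TC1900001228 alone passed, upwards in SR − YSR and SS − YSS and downwards in YSS − CT.

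No pseudogene cluster met the criterion between METH and CT rats or between SR and SS rats. In SRvsCT, 0 of 468 clusters met the criterion, against 0.226% of all expressed clusters, and 6 had an unadjusted p under 0.05, against 3.95% of all expressed clusters. Of these, 2 were higher and 4 lower in SR, where 2.86% of all expressed clusters were higher and 1.09% lower. The median difference was −0.07, beside −0.04 for all expressed clusters, and 317 of the 468 were lower in SR (67.7%, against 58.5% of all). In SSvsCT, 0 of 468 met the criterion, against 0.0308% of all, and 7 had an unadjusted p under 0.05, against 1.62%. Here 5 were higher and 2 lower in SS, beside 1.26% higher and 0.359% lower among all expressed clusters. In SRvsSS, 0 of 468 met the criterion, against 0.0615% of all, and 7 had an unadjusted p under 0.05, against 2.32%. All 7 were lower in SR, beside 0.584% of all expressed clusters higher and 1.73% lower. The median difference of SRvsSS was −0.08, beside −0.05 for all expressed clusters. Of the 128 bright clusters, 120 were lower in SR than in SS, with a median of −0.18 and 2 at an unadjusted p under 0.05. Among all selected clusters 70.7% were lower in that comparison, and among all expressed clusters 62.3% were. SR replicate 5, the lowest array for the bright clusters, is among the SR arrays, and its part in the median of −0.18 was not tested. The bright clusters moved together on single arrays, so the 120 are not independent observations. Their array medians overlapped between the groups, from −0.41 to 0.06 in SR and from −0.08 to 0.27 in SS. Neither share beside the 120 comes from clusters matched on signal.

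The cluster with the most negative difference from CT in both METH groups was TC1400002178 (LOC360974; chromosome 14, 85928124 to 85928583, minus strand), annotated as similar to Rpl18, a protein of the large ribosomal subunit. Its signal had a lowest value of 10.14, a median of 11.27 and a highest value of 11.66 in SR rats and of 10.24, 11.29 and 12.02 in SS rats. The YSR arrays read 12.04, 11.21 and 11.64 and the YSS arrays 11.79, 10.79 and 11.84, against a lowest of 11.52, a median of 11.90 and a highest of 12.06 in CT rats. The CT values were close together and high, while both METH groups were spread over a wide range that reached into them. The difference was −0.72 ± 0.30 in SRvsCT (SE, limma p = 0.0244, adjusted p = 0.768, exact 2-sided permutation p = 0.00649) and −0.64 ± 0.30 in SSvsCT (limma p = 0.0434, adjusted p = 0.990, exact permutation p = 0.0887). Neither reached a fold of 1.7. The coding cluster of Rpl18 lay below bioB with a CT mean of 7.73 and differed by −0.35 in SRvsCT (exact permutation p = 0.0216) and −0.32 in SSvsCT (exact permutation p = 0.0801). In SRvsCT the cluster passed the criterion without SR replicate 1 (−0.81), SR replicate 2 (−0.82), SR replicate 4 (−0.79) or CT replicate 5 (−0.78), and in SSvsCT without SS replicate 3 (−0.79) or SS replicate 6 (−0.79).

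Another of the named clusters, TC0900001905 (RGD1560362, Arpc5l-ps1 in RefSeq; chromosome 9, 49794994 to 49795936, minus strand), had a higher mean in both METH groups. It is a copy of a subunit of the complex that nucleates branched actin, and it lies on the strand opposite to Gpr45. Its signal had a lowest value of 9.97, a median of 10.05 and a highest value of 10.43 in SR rats and of 10.003, 10.16 and 10.32 in SS rats. The YSR arrays read 10.30, 9.51 and 10.01 and the YSS arrays 9.78, 9.88 and 9.98, against a lowest of 9.30, a median of 9.73 and a highest of 10.15 in CT rats. A single CT array, replicate 1, reached into the METH range. The difference was 0.40 ± 0.13 in SRvsCT (SE, limma p = 0.00446, adjusted p = 0.768, exact permutation p = 0.0108) and 0.43 ± 0.13 in SSvsCT (limma p = 0.00265, adjusted p = 0.990, exact permutation p = 0.00866). The folds were 1.32 and 1.34, below the criterion.

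Nor did any cluster meet it between yoked rats, which received shocks without METH, and CT rats. In YSRvsCT, 0 of 468 clusters met the criterion, against 0.205% of all expressed clusters, and 6 had an unadjusted p under 0.05, against 1.63%. All 6 were higher in YSR, beside 0.83% of all expressed clusters higher and 0.8% lower. In YSSvsCT, 0 met the criterion, against 0.625%, and 6 had an unadjusted p under 0.05, against 4.89%. These were 3 higher and 3 lower in YSS, beside 2.17% higher and 2.72% lower among all. In YSRvsYSS, 0 met the criterion, against 1.41%, and 17 had an unadjusted p under 0.05, against 4.66%. Of the 17, 15 were higher and 2 lower in YSR, beside 3.03% higher and 1.63% lower among all. These 3 comparisons share samples with each other and with those below. With 3 rats on each side, an exact permutation test of YSRvsYSS cannot go below p = 0.1. Without YSS replicate 1, TC0X00000740, a copy on chromosome X annotated as similar to riboflavin kinase, met the criterion in YSRvsYSS with a difference of 0.88. It was named after its value was seen.

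METH rats were then set against their yoked groups, which received saline and non-contingent shocks, so that drug and shock contingency cannot be told apart. In SRvsYSR, 1 of 468 clusters met the criterion, against 1.37% of all expressed clusters, and 23 had an unadjusted p under 0.05 (4.91%), against 7.36%. Of the 23, 1 was higher in SR, beside 2.98% of all expressed clusters, and 22 were lower, beside 4.38% of all, with differences between −0.19 and −0.51. They include 3 ribosomal protein copies, 1 translation factor copy, 1 nuclear ribonucleoprotein copy and 1 chromatin copy, and 2 of them have identical values on all arrays. None was among the 128 bright clusters. The median difference was −0.08, beside −0.02 for all expressed clusters, and 344 of the 468 (73.5%, against 56.1% of all) were lower in SR. In SSvsYSS, 1 of 468 met the criterion, against 0.164% of all, and 8 had an unadjusted p under 0.05, against 1.85%. These were 5 higher and 3 lower in SS, beside 1.42% higher and 0.42% lower among all. The median difference was 0.00, beside 0.02 for all expressed clusters.

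The single cluster at the criterion was the same in both comparisons. TC1900001228 (RGD2323492_1; chromosome 19, 26270530 to 26274929, minus strand, 30 probes) is annotated as zinc finger CCCH type antiviral 1, the name of an RNA-binding protein that recognizes viral RNA and directs it to decay. No other cluster of the table overlaps it. Its signal had a lowest value of 8.98, a median of 10.22 and a highest value of 10.91 in SR rats and of 9.53, 10.04 and 10.61 in SS rats. The YSR arrays read 9.90, 8.48 and 9.23 and the YSS arrays 8.48, 8.87 and 8.85, against a lowest of 8.80, a median of 9.77 and a highest of 10.07 in CT rats. All SS arrays lay above all YSS arrays, whereas SR and YSR overlapped, and the CT arrays fell into 4 values of 9.66 or more and 2 of 8.86 or less. The cluster was above bioB of the same array, the level used to call expression, on 5 of 6 SR, 6 of 6 SS, 2 of 3 YSR, 0 of 3 YSS and 4 of 6 CT arrays. Its YSS mean is thus a level not above that mark. The criterion was applied to this cluster all the same, so its folds in SSvsYSS and YSSvsCT rest on a level not called expressed.

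In SSvsYSS the cluster averaged 10.09 ± 0.47 in SS (SD, n = 6) and 8.73 ± 0.22 in YSS (n = 3), a difference of 1.35 ± 0.39 (SE), with a limma p of 0.00228 and an adjusted p of 0.987. The exact 2-sided permutation p was 0.0119, the smallest that 6 against 3 arrays allow. In SRvsYSR it averaged 10.12 ± 0.74 in SR (n = 6) and 9.20 ± 0.71 in YSR (n = 3), a difference of 0.92 ± 0.39 (limma p = 0.0288, adjusted p = 0.619, exact permutation p = 0.131). The SRvsYSR call was lost without SR replicate 3 (0.78), SR replicate 6 (0.76), YSR replicate 2 (0.56) or YSR replicate 3 (0.93), and the SSvsYSS call held with any 1 array left out (1.23 to 1.46). With the choroid plexus and cortex marker means as covariates, the difference was 0.68 in SRvsYSR, no longer at a limma p under 0.05, and 1.65 in SSvsYSS, still at the criterion. The difference between the 2 comparisons, SRvsYSR minus SSvsYSS, was −0.44 for this cluster (limma, adjusted p = 0.959). Over all 468 clusters that difference had an unadjusted p under 0.05 for 15 clusters, 14 of them negative, against 3.83% of all expressed clusters, and none passed adjustment. The split by sign was not counted over all expressed clusters, so it cannot be called particular to pseudogene clusters.

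Against CT rats, TC1900001228 differed by 0.58 in SRvsCT, 0.55 in SSvsCT, −0.34 in YSRvsCT and −0.81 in YSSvsCT, none of which met the criterion with all arrays. In YSSvsCT the fold was past 1.7 but the limma p was 0.0520, and the criterion was met without any 1 of SR replicates 1, 3 and 6, YSR replicates 1 and 2 (all −0.81, since they enter only through the shared spread), CT replicate 5 (−0.95) or CT replicate 6 (−0.94). In SRvsCT it was met without SR replicate 1 (0.81). The coding cluster of Zc3hav1, the gene of that name, lay far below bioB with a CT mean of 6.28, and differed by −0.12 in SRvsYSR and 0.25 in SSvsYSS (exact permutation p = 0.393 and 0.119).

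**Figure D4:**
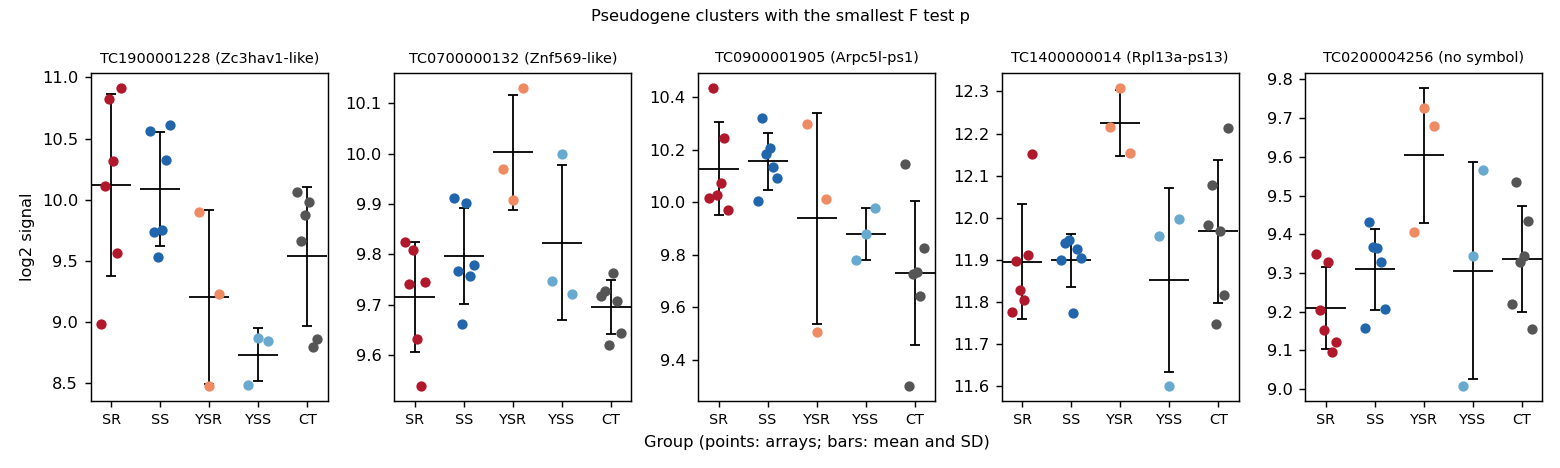
Log2 signal on each array (points) of the 5 pseudogene clusters with the smallest F test p, in SR, SS, YSR, YSS and CT rats, with the mean and SD of each group (bars); each panel has its own axis, which does not start at 0. TC1900001228 averaged 10.12 in SR and 10.09 in SS, 9.20 in YSR and 8.73 in YSS, against 9.54 in CT rats.

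All 5 groups were also tested at once. Of the 468 clusters, 8 (1.71%) had an unadjusted F test p under 0.05, against 2.22% of all expressed clusters, and the smallest adjusted p was 0.912 (limma). The ordinary F test without moderation found 9 of the 468, beside 202 of all 9755 expressed clusters. Leaving out a single array moved the count to 34 for YSS replicate 1, to 19 for YSR replicate 1 and to 5 for each of SR replicates 1, 5 and 6, YSR replicate 3 and YSS replicate 2. The share of all expressed clusters was not counted in these fits, so the moves cannot be called particular to pseudogene clusters. TC1900001228 and TC0900001905, described above, had the smallest and the third smallest F test p (limma, adjusted p = 0.912 for both).

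The other 3 of the 5 smallest F test p-values belonged to clusters that were highest in YSR rats. TC0700000132 (chromosome 7, 10510214 to 10531221, plus strand), annotated as a ZNF569-like zinc finger protein, lies wholly within a noncoding cluster on the same strand and a coding cluster on the opposite strand, neither of them above bioB. Its YSR arrays read 9.97, 9.91 and 10.13, above all SR arrays (9.54 to 9.82, median 9.74) and all CT arrays (9.62 to 9.76, median 9.71). The SS arrays ran from 9.66 to 9.91 with a median of 9.77, and the YSS arrays read 9.75, 9.9998 and 9.72. The difference was −0.29 ± 0.08 in SRvsYSR (SE, limma p = 0.00199, adjusted p = 0.573) and 0.31 ± 0.08 in YSRvsCT (limma p = 0.00115, adjusted p = 0.999), each with an exact permutation p of 0.0119.

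TC1400000014 (LOC689547, Rpl13a-ps13 in RefSeq; chromosome 14, 1004176 to 1004799, plus strand) is a copy of Rpl13a, another protein of the large ribosomal subunit. Its YSR arrays read 12.22, 12.31 and 12.15, above all SR arrays (11.78 to 12.15, median 11.86) though by less than 0.01 at the nearest pair, and above the YSS arrays at 11.96, 11.60 and 11.997. The SS arrays ran from 11.77 to 11.95 with a median of 11.92 and the CT arrays from 11.75 to 12.21 with a median of 11.98, so that YSR and CT overlapped. The difference was −0.33 ± 0.10 in SRvsYSR (SE, limma p = 0.00423, adjusted p = 0.573, exact permutation p = 0.0119) and 0.37 ± 0.12 in YSRvsYSS (limma p = 0.00489, adjusted p = 0.914). Rpl13a itself differed by −0.04 in SRvsYSR (exact permutation p = 0.536).

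TC0200004256 (no symbol; chromosome 2, 198745717 to 198746359, minus strand) lies on the strand opposite to Lix1l. Its YSR arrays read 9.41, 9.73 and 9.68, above all SR arrays (9.10 to 9.35, median 9.18). The SS arrays ran from 9.16 to 9.43 with a median of 9.35, the YSS arrays read 9.01, 9.34 and 9.57, and the CT arrays ran from 9.16 to 9.53 with a median of 9.34. The difference was −0.39 ± 0.11 in SRvsYSR (SE, limma p = 0.00163, adjusted p = 0.573, exact permutation p = 0.0119). The mean of the 15 choroid plexus markers, 2 of them above bioB in CT arrays, was also highest in YSR rats, at 9.18, beside 7.33 in SR, 8.13 in SS, 6.83 in YSS and 7.14 in CT rats. With those markers and the cortex markers as covariates, the SRvsYSR difference was −0.25 for TC1400000014 and −0.40 for TC0200004256, both at a limma p under 0.05, and the YSRvsCT difference of TC0700000132 was 0.37, also at a limma p under 0.05. Dropping the 9 arrays on which Kl exceeded bioB left 4 SR arrays and 1 YSR array (replicate 3), which was assumed to vary like the other groups. The SRvsYSR difference then was −0.29 for TC1400000014 and −0.48 for TC0200004256. Since Kl exceeded bioB on YSR replicates 1 and 2, choroid plexus signal and group are partly confounded in these comparisons. A part of that tissue in the differences was not tested, and the SRvsYSR difference of TC0700000132 is not given with the covariates.

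Copies of a family and the coding genes of that family are given side by side. Of the 46 ribosomal protein copies, none met the criterion in any comparison. In SRvsYSR 38 of the 46 were lower in SR with a median of −0.09, where 73.5% of all selected and 56.1% of all expressed clusters were lower, and 3 of them had an unadjusted p under 0.05, beside 4.38% of all expressed clusters called lower. The 95 expressed coding clusters of ribosomal proteins, out of 134 on the array, had a median of −0.04 in SRvsYSR, 67 were lower, and none had an unadjusted p under 0.05. In YSRvsYSS 39 of the 46 copies were higher in YSR with a median of 0.08, and 70 of the 95 coding clusters were higher with a median of 0.06. In that comparison 50.9% of all selected and 55.9% of all expressed clusters were lower in YSR.

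Glycolysis, the breakdown of glucose to pyruvate, was compared in the same way. Of the 18 copies, none had an unadjusted p under 0.05 in SRvsCT or SRvsYSR, and their medians were 0.06 and 0.01. All 13 expressed coding clusters of glycolytic enzymes, out of 15, were higher in SR in both comparisons, with medians of 0.16 and 0.22, and 3 and 4 of them had an unadjusted p under 0.05, beside 2.86% and 2.98% of all expressed clusters called higher. In YSSvsCT 11 of the 13 were also higher, with a median of 0.21, whereas in YSRvsCT 10 were lower, with a median of −0.05, and in YSRvsYSS all 13 were lower, with a median of −0.23. None of the 13 met the criterion in any comparison. The rise in SR was not particular to glycolysis. In SRvsCT, 65 of 75 ubiquitin and proteasome, 38 of 43 chaperone and 41 of 50 oxidative phosphorylation coding clusters were higher. In SRvsYSR, 56, 33 and 37 of them were. Ribosomal protein, chromatin and nuclear ribonucleoprotein genes leaned the other way (ribosomal: 68 and 67 of 95 lower). Among all expressed clusters, 58.5% and 56.1% were lower in SR. Whether copies and genes differ was not tested. Among the 9 Hspa8 copies, all were lower in SS than in YSS rats with a median of −0.15, none with an unadjusted p under 0.05, beside 43.6% of all expressed clusters that were lower and a difference of −0.06 for Hspa8 itself (exact permutation p = 0.417). The 13 Gapdh copies had medians between −0.06 and 0.05 in all 8 comparisons.

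The pseudogene clusters left out by the selection also gave few calls. Of the 1558 below bioB in CT rats, fitted with all clusters of the array, 0 met the criterion in SRvsCT (0.106% of all clusters), 0 in SSvsCT (0.0305%), 1 in SRvsSS (0.0639%), 0 in YSRvsCT (0.142%), 2 in YSSvsCT (0.359%), 1 in YSRvsYSS (0.601%), 1 in SRvsYSR (0.439%) and 1 in SSvsYSS (0.135%). No adjusted p was under 0.05 among them, the smallest being 0.748 in SRvsYSR (limma).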

How the data were processed

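RNA of the dorsal striatum from 24 rats was hybridized to 1 array per rat. The deposited values are log2 signals that the authors made with the Affymetrix Expression Console, whose version and algorithm are not given in the sources used here. The second deposited table supplied the annotation alone. Its other columns hold the authors' own comparisons (group averages and SDs, fold changes, p-values from ANOVA and their FDR) and were not used. Of 70580 rows, 1738 controls were left out, except bioB as the level of expression. Every column of single arrays was mapped to a rat. The members and gene lists were chosen with earlier results of these data known.

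A cell-means model of the 5 groups was fitted to the 9755 expressed clusters with limma 3.58.1 (R 4.3.3) and adjusted by Benjamini-Hochberg over all of them. Exact 2-sided permutation tests over arrays were added for named clusters. All p-values measure the spread between these rats, and the number of arrays, 3 to 6 per group, limits the precision. The test was tried first on simulated data with noise independent between clusters. In the real data the bright clusters moved together on single arrays, so that trial does not show how the test performs on them. No batch was given.

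Named clusters are those at the criterion, the 5 with the smallest F test p, the 10 with the highest CT mean, 5 on each side of the bioB level, the 5 with the largest SD within groups and the 2 brightest of each parent family. The alternatives were no expression filter, selection over all arrays, quantile normalization, an ordinary ANOVA of the groups compared, the replicate number as a block, marker means of the choroid plexus and cortex as covariates, the arrays without Kl above bioB, and each array left out.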

Additional observations from a re-analysis of the deposited data

Results flagged for a closer look

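Among the 40 named clusters, 120 groups of 6 rats were searched for an array far from the others of its group, and 10 such values were found, where chance gives about 1 in 20. Of these, 4 were low values of SR replicate 5 in the brightest clusters. TC0200003063 read 19.15 there (nearest SR array 19.41), TC1800000054 read 18.91 (19.19), TC0X00000792 read 19.00 (19.19) and TC0700001091 read 18.85 (19.05). The other values were spread over arrays. SR replicate 6 was high for TC1400000014 (Rpl13a-ps13) at 12.15 (nearest 11.91) and for TC1100000577 at 9.48 (9.23). SR replicate 2 was high for the Gapdh copy TC0500002771 at 18.56 (18.44) and low for the Eif4g2 copy TC0900000416 at 14.10 (14.37). SS replicate 1 was low for TC0500002771 at 18.15 (18.42), and SS replicate 4 was low for TC1400000014 at 11.77 (11.90).

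In 3 named clusters the difference of SRvsYSR was not that of SSvsYSS at an unadjusted limma p under 0.05, though none passed adjustment (adjusted p = 0.958 for each). METH and yoked rats differed in the drug and in whether shocks followed their own lever presses, and these cannot be told apart. These clusters were named for a small F test p over the same arrays, so the unadjusted p is not independent evidence. SRvsYSR minus SSvsYSS was −0.26 for TC0700000132, −0.38 for TC1400000014 and −0.40 for TC0200004256.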

How the results depend on the processing

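Of the 64 summary values recomputed under the alternatives other than leaving out single arrays, 52 stayed at or within 1.5 times of the value reported and 12 moved. These values are counts and have no direction. Of 42 recomputed log2 differences of single clusters, 38 kept their sign and their status at the criterion. The other 4 kept their sign but no longer met the criterion. With the marker means as covariates, the criterion was met by 1 cluster in SRvsCT, 1 in SSvsCT, 1 in YSSvsCT and 0 in SRvsYSR, and the F test count was 5. Without the arrays with Kl above bioB it was met by 1 in SSvsCT, 1 in YSSvsCT and 0 in SRvsYSR, where YSR was then 1 array (replicate 3), assumed to vary like the other groups. No expression filter gave 1 in YSSvsCT, an ordinary ANOVA gave 0 in SRvsYSR, and quantile normalization gave an F test count of 13. The clusters were TC1400002178 in SRvsCT and SSvsCT and TC1900001228 in YSSvsCT. The replicate block gave 0 in SRvsYSR (TC1900001228 differed by 0.93, at a p above 0.05). The sources used here do not say that the numbers pair rats. Residuals of 39 same-numbered pairs correlated between −0.687 and 0.642 and 6 of 24 arrays were closest to their own number. The cause of these moves was not tested. With 1 array left out, the count was 0 to 2 in SRvsCT (2 without SR replicate 1), 0 to 1 in SSvsCT, 0 in SRvsSS and in YSRvsCT, 0 to 1 in YSSvsCT, in YSRvsYSS and in SRvsYSR, 1 to 2 in SSvsYSS (2 without YSS replicate 1, where TC1000001728 joined with 0.99) and 5 to 34 for the F test. The number of selected clusters ran from 465 to 472. Under the alternatives and with an array left out, calls were counted among the selected clusters alone, without the share of all expressed clusters. Groups of 3 yoked rats limit the comparisons that use them, and clusters with identical values count more than once.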
